A study of Bubalus bubalis with 12 samples.

Results

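The nuclear genes of oxidative phosphorylation were followed complex by complex in the corpus luteum (CL) of buffalo cows after a luteolytic dose of prostaglandin. The set was every gene on the array whose single annotated symbol belongs to the NDUF, SDHA to SDHD, UQCR, COX4 to COX8 or ATP5 families, together with CYC1, and it held 89 genes of the 9155 that the array names. Of the 89 genes, 40 were assigned to complex I, 8 to complex II, 9 to complex III, 15 to complex IV and 17 to complex V. Structural subunits made up 79 of them, and 10 were assembly factors, a supercomplex factor or an inhibitory factor that share the family names. Each gene was represented by 1 probe set, the one with the highest mean over the 12 arrays.

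Cloprostenol, an analogue of prostaglandin F2α, was injected intramuscularly at 500 µg on day 11 of the estrous cycle. The CL was taken after 3 h (2 animals, replicates 1 and 3), 6 h (3 animals) or 18 h (3 animals), and untreated control CL (0 h) came from 4 animals on the same cycle day. All animals had cycled normally, ages were not stated in the labels, and each animal gave 1 array of whole CL tissue. Values are log2 intensities after robust multichip averaging (RMA), so a difference of 1 is a doubling, and a member was called changed when its adjusted p in the limma fit was under 0.05.

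Oxidative phosphorylation passes electrons from NADH (complex I) and succinate (complex II) through coenzyme Q to complex III, and from there through cytochrome c to complex IV, which reduces oxygen. Complexes I, III and IV pump protons across the inner mitochondrial membrane and complex V, the ATP synthase, makes ATP from their return. Most subunits are encoded in the nucleus and a few core subunits in the mitochondrial genome. In luteal cells the mitochondria also carry the first step of progesterone synthesis, the cleavage of the cholesterol side chain. No mitochondrially encoded subunit was among the named genes (0 of the 25 symbols searched for), so all that follows concerns the nuclear part.

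Tissue and arrays were checked first. Of 9 measured markers of steroidogenic luteal cells, among them STAR, CYP11A1 and HSD3B1, the mean level lay between 12.51 and 13.80 on every array, near the top of the scale, which reached 15.3. Array medians lay between 7.09 and 7.17. Control replicates 1 and 4 were closer to each other (r = 0.997 across probe sets) than any other pair of controls (0.982 to 0.990), and results that rest on them are also given with these 2 arrays averaged into 1. The 2 arrays at 3 h stood apart, since replicate 1 was above replicate 3 in 86 of the 89 members, by a median of 0.52.

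Most members gave bright signals in the CL. Their mean over the 12 arrays ran from 5.45 to 14.3, and 78 of 89 averaged 10 or more, as did 2045 of all 9155 genes. A decline of most nuclear subunits was seen at 6 and 18 h. At 18 h the median log2 difference of the 89 members was -0.35, against -0.02 for all genes, and 82 members (92.1%) had a negative difference, against 53.9% of all genes. At 6 h the median was -0.24, against -0.05 for all genes, and 81 members were negative. At 3 h it was -0.07, against -0.01 for all genes, and its sign rested on single arrays, since it was -0.341 without 3 h replicate 1 and 0.183 without 3 h replicate 3. Since RNA was drawn from whole CL, fewer cells of a type and less RNA per cell cannot be told apart. The 3 comparisons with 0 h share the same control animals.

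At 18 h, 15 members were down regulated and 3 were up regulated. Over all genes, 8.35% were called lower and 7.55% higher at 18 h, and among genes with a mean of 10 or more 12.2% and 11.2%, so the count of members called lower was above the background and the count called higher was below it. All 3 arrays at 18 h lay below all 4 controls in 50 members and above them in 4 members, where 16.9% and 14.6% of all genes did so. The called decreases were all modest, between -0.78 and -0.41. At 6 h, 4 members were down regulated and 1 was up regulated. The background was 7.66% of genes lower (8.75% of those with a mean of 10 or more) and 6.55% higher, so neither count of members at 6 h was above it. The 6 h arrays lay wholly below the controls in 39 members, where 17.8% of all genes did. At 3 h no member was called, and 0.0328% of all genes were. At an unadjusted p under 0.05, 2 members were lower and 0 higher at 3 h, where 6.38% of all genes were lower and 4.53% higher. NDUFA3, NDUFA13 and NDUFAF5 were called at both 6 and 18 h, 2 members at 6 h only and 15 at 18 h only.

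The calls of single genes depended on single arrays. Shares of all genes called are given for the main fit only, so the counts below have no background beside them. With control replicates 1 and 4 averaged, the 18 h count fell to 3 members, all of them the higher ones, and the 15 lower members had adjusted p values of 0.0553 to 0.117, and at 6 h only NDUFAF5 stayed called. The 18 h count was also 3 when control 1 was left out, 4 when it was control 2 and 2 when it was control 4. Dropping replicate 1 or 3 at 18 h gave 2 and 1 members, dropping replicate 3 at 6 h gave 9, and dropping either 3 h array gave 33. The median of the 89 members at 18 h lay between -0.445 and -0.251 whichever array was left out. For each of the 15 members called lower, 4 to 9 of the 12 fits that dropped an array ended the call. The 6 h count was 2 when control 1 or control 2 was left out and 1 when control 4 was. Dropping replicates 1, 2 or 3 at 6 h gave 1, 0 and 1 members, and dropping either 3 h array gave 14.

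The size of the shift varied between the complexes. At 18 h the median log2 difference was -0.39 for complex I (38 of 40 members negative), -0.16 for complex II (6 of 8), -0.35 for complex III (9 of 9), -0.19 for complex IV (12 of 15) and -0.40 for complex V (17 of 17). At 6 h the medians were -0.27, -0.14, -0.22, -0.18 and -0.25 for complexes I to V. On each of the 6 arrays from 6 and 18 h, the medians of complexes I and V both lay below those of complexes II and IV. The same order was seen in untreated control replicate 3 (-0.17 and -0.12, against -0.01 and -0.09), so it was not particular to treated arrays. Complex III lay below complexes II and IV on 4 of these 6 arrays. These are descriptions of the members, and the difference between complexes was not tested. Without 18 h replicate 1 the 18 h median was -0.093 for complex II and -0.255 for complex V. The 6 h median of complex II was -0.072 when replicate 1 at 6 h was dropped and -0.09 when control 1 was. For complex IV the 18 h median ran from -0.257 to -0.159 with 1 array left out. Under the other alternatives it ran from -0.276 to -0.171.

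The shift was uneven between animals of a group. The median deviation of all members from the control mean was -0.50, -0.15 and -0.39 in 18 h replicates 1 to 3 and -0.43, -0.17 and -0.17 in 6 h replicates 1 to 3. It was 0.18 and -0.34 in 3 h replicates 1 and 3, against 0.02, 0.10, -0.12 and 0.00 in control replicates 1 to 4. Replicate 2 at 18 h lay only just below the lowest control, and 3 h replicate 3 lay among the 6 and 18 h arrays while 3 h replicate 1 lay above every control. In the plot of each complex by array, 3 h replicate 1 lay above every control in complexes I, II, III and V but not in complex IV, and 18 h replicate 2 lay below every control in complexes I, II, IV and V but not in complex III.

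**Figure D1:**
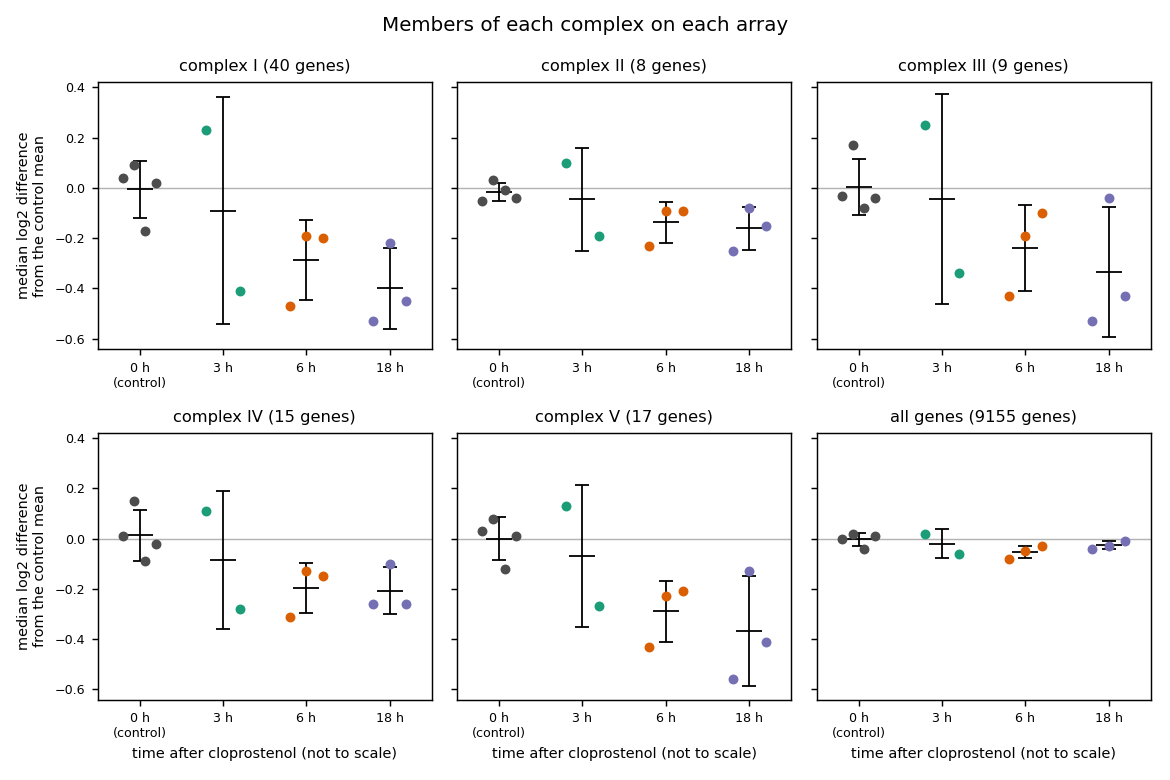
Median log2 difference of the members of each complex from the control mean (vertical axis) on each of the 12 arrays at 0, 3, 6 and 18 h after cloprostenol (horizontal axis), with all genes in the last panel. Points are arrays in order of replicate and bars are mean ± SD over arrays. Complexes I and V sit lower than II and IV on every 6 h and 18 h array, and also on control replicate 3.

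Complex I, the NADH dehydrogenase, held most of the calls, with 11 of its 40 members lower and 1 higher at 18 h. Over all genes 8.35% were called lower and 7.55% higher, and among genes with a mean of 10 or more 12.2% and 11.2%. Complex I was also the largest group, with 40 of the 89 members. Its matrix arm has an N module that oxidises NADH and a Q module that reduces coenzyme Q. The median at 18 h was -0.30 over the 8 measured N module subunits, -0.52 over the 7 of the Q module and -0.42 over the 20 accessory subunits of the proton-pumping membrane arm.

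In the Q module, NDUFS3, a core subunit, was at 10.80, 11.05 and 11.01 at 18 h, against 11.76, 11.98, 11.52 and 11.67 in controls. All 3 treated values lay below every control, a 1.71-fold decrease (log2 -0.78 ± 0.20 SE, adjusted p = 0.0267). A dimmer probe set of NDUFS3 was called lower at 18 h (log2 -0.76) and at 6 h (log2 -1.09). The chosen one gave -0.31 at 6 h and was not called there. NDUFA6, an accessory subunit of the same module, was at 10.55, 10.84 and 10.54 at 18 h, against 11.45, 11.23, 11.12 and 11.45 in controls (log2 -0.67 ± 0.16, adjusted p = 0.0192). At 6 h its values of 11.26, 11.31 and 10.88 overlapped the controls. NDUFA9 was also down regulated at 18 h (log2 -0.48 ± 0.13, adjusted p = 0.0335). NDUFA5 was the exception, at 11.34, 11.36 and 11.38 at 18 h, against 11.19, 11.23, 11.19 and 11.23 in controls, and it was not called (log2 0.15, adjusted p = 0.418). Its 2 other probe sets gave -0.30 and -0.34, so the direction for NDUFA5 is uncertain.

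In the N module, NDUFA2 (log2 -0.48 ± 0.14, adjusted p = 0.039) and NDUFS4 (log2 -0.42 ± 0.12, adjusted p = 0.0472) were down regulated at 18 h, both accessory subunits. The core subunits were not called at 18 h by their chosen probe sets. NDUFV1, which binds the flavin that takes electrons from NADH, was at 10.54, 11.11 and 10.63 at 18 h, against 11.16, 11.21, 10.97 and 11.13 in controls, where replicate 2 at 18 h overlapped the controls. NDUFS1, the largest subunit of the complex, was at 11.13, 11.32 and 11.06 at 18 h, against 11.56, 11.46, 11.49 and 11.51 in controls (log2 -0.34 ± 0.11, adjusted p = 0.0732), with no overlap. A dimmer probe set of NDUFS1 was called lower at 18 h (log2 -0.45, adjusted p = 0.00801) and another gave 0.07.

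In the membrane arm 6 of 20 subunits were down regulated at 18 h, where 8.35% of all genes were called lower. These were NDUFA11, NDUFA3, NDUFA8, NDUFA13, NDUFC2 and NDUFC1, and all 20 had negative differences. NDUFA3 was at 11.59, 11.91 and 11.72 at 18 h, against 12.42, 12.69, 12.24 and 12.45 in controls (log2 -0.71 ± 0.19, adjusted p = 0.03), and at 11.39, 11.71 and 12.01 at 6 h (log2 -0.75 ± 0.19, adjusted p = 0.0266). The values at both times lay below every control. NDUFA13 was at 10.96, 11.48 and 10.99 at 18 h and at 10.82, 11.30 and 11.28 at 6 h, against 11.72, 11.84, 11.62 and 11.67 in controls (log2 -0.57 ± 0.16, adjusted p = 0.0386, and log2 -0.58 ± 0.16, adjusted p = 0.0382). Neither time overlapped the controls. NDUFA1 passed the test at 6 h only, at 13.21, 13.45 and 13.29, against 13.80, 13.69, 13.65 and 13.81 in controls (log2 -0.42 ± 0.12, adjusted p = 0.044), and replicate 2 at 18 h was at 13.70, within the control range.

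NDUFA11, a subunit of the membrane arm, was at 10.28, 10.70 and 10.20 at 18 h, against 11.24, 11.22, 10.94 and 11.16 in controls (log2 -0.75 ± 0.19, adjusted p = 0.0239), but a second and dimmer probe set of the gene gave 0.07. NDUFA8 fell by 0.62 ± 0.17 (adjusted p = 0.0398), NDUFC2 fell by 0.51 ± 0.15 (adjusted p = 0.0441) and NDUFC1 fell by 0.44 ± 0.12 on the log2 scale (adjusted p = 0.0362). NDUFB2 is a member whose chosen probe set missed the threshold (log2 -0.53, adjusted p = 0.124) while its other probe set passed it at 18 h (log2 -0.57). For NDUFAB1, the carrier subunit of complex I, the chosen probe set gave -0.27 at 18 h and was not called. A dimmer probe set of NDUFAB1 was called lower (log2 -0.33, adjusted p = 0.0353).

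Of the 4 assembly factors of complex I measured, 1 was called, and it was higher. Of all genes, 7.55% were called higher at 18 h and 6.55% at 6 h. NDUFAF5, which hydroxylates an arginine of NDUFS7 during assembly, was up regulated at both times. It was at 8.91, 8.92 and 8.87 at 18 h and at 8.78, 9.18 and 9.0 at 6 h, against 8.68, 8.40, 8.44 and 8.51 in controls (log2 0.39 ± 0.11, adjusted p = 0.0351, and log2 0.48 ± 0.11, adjusted p = 0.0171). All treated arrays at these times lay above all controls, and a second probe set of the gene was higher at both times as well (log2 0.58 and 0.61). When each array was dropped in turn, the 18 h call ended in 7 of 12 fits and the 6 h call in 2. The other 3 factors measured, NDUFAF3, NDUFAF6 and NDUFAF8, were not called by their chosen probe sets. A dimmer probe set of NDUFAF3 was called lower at 18 h (log2 -0.52, adjusted p = 0.0497).

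**Figure D2:**
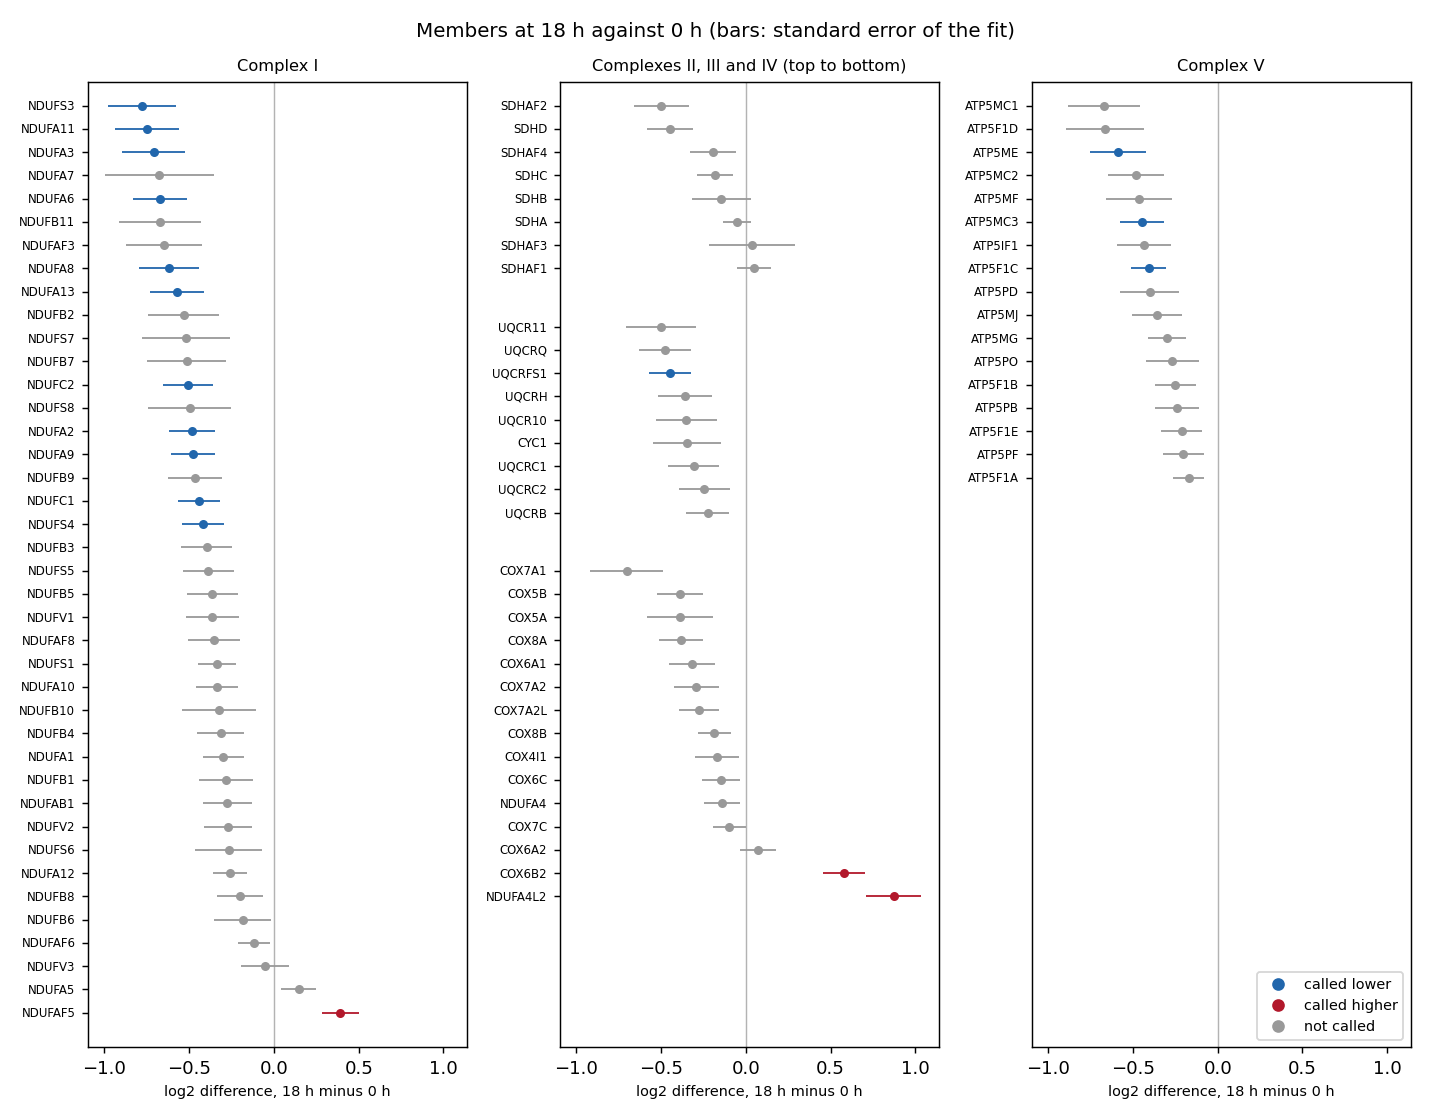
Log2 difference at 18 h minus 0 h (horizontal axis) of all 89 members, one row per gene, grouped by complex and ordered within it. Points are limma estimates with bars of 1 standard error, coloured by whether the member was called lower, called higher or not called, and the 15 lower calls lie between -0.78 and -0.41.

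Complex II, succinate dehydrogenase, which also belongs to the citric acid cycle, had the smallest median of the 5 complexes at 18 h and at 6 h. SDHA, the flavoprotein that oxidises succinate, was at 10.90, 11.10 and 11.00 at 18 h, against 10.96, 11.11, 11.12 and 11.01 in controls (log2 -0.05 ± 0.08, adjusted p = 0.76). The ranges overlapped, although replicate 1 at 18 h lay below every control. SDHB, the iron-sulphur subunit, overlapped the controls as well (log2 -0.14 ± 0.18, adjusted p = 0.683). The membrane anchor SDHD was at 11.17, 11.46 and 11.27 at 18 h, against 11.86, 11.77, 11.67 and 11.69 in controls, with no overlap, and just missed the threshold (log2 -0.45 ± 0.13, adjusted p = 0.0522). No member of complex II was called at 18 h, with 2 of 8 lower and 0 higher at an unadjusted p under 0.05, where 17.5% of all genes were lower and 14.8% higher. SDHAF2, which helps attach the flavin to SDHA, was down regulated at 6 h, at 9.87, 10 and 9.98, against 10.46, 10.39, 11.03 and 10.57 in controls (log2 -0.66 ± 0.16, adjusted p = 0.0257). Control replicate 3 was the highest of these.

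In complex III, the cytochrome bc1 complex, all 9 members had negative differences at 18 h, between -0.50 and -0.23, and 1 was called. This count was near the background of 8.35% of all genes called lower (12.2% of those with a mean of 10 or more). UQCRFS1, the Rieske iron-sulphur protein, was at 12.31, 12.47 and 12.31 at 18 h, against 12.79, 12.94, 12.69 and 12.81 in controls (log2 -0.45 ± 0.12, adjusted p = 0.038). The groups did not overlap. At 6 h its values of 12.54, 12.67 and 12.71 reached the lowest control. UQCRQ, a small accessory subunit, was at 7.87, 8.08 and 8.08 at 18 h, against 8.36, 8.74, 8.42 and 8.41 in controls (log2 -0.48 ± 0.16, adjusted p = 0.0702). CYC1, cytochrome c1, was at 11.55, 12.07 and 11.60 at 18 h, against 11.99, 12.31, 12.01 and 12.04 in controls, where replicate 2 at 18 h lay within the control range (log2 -0.35, adjusted p = 0.315).

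Complex IV, cytochrome c oxidase, had no subunit called lower at 18 h, where 8.35% of all genes were. At an unadjusted p under 0.05, 5 of its 15 members were lower (17.5% of all genes). In complex IV 2 members were called higher (7.55% of all genes). Several of its nuclear subunits exist as paired isoforms named in mammals for the tissue that favours them. COX4I1, the ubiquitous isoform of subunit 4, was at 12.55, 12.70 and 12.59 at 18 h, against 12.74, 12.94, 12.75 and 12.70 in controls (log2 -0.17 ± 0.13, adjusted p = 0.481). COX6A1, the liver isoform of subunit 6A, gave log2 -0.32 ± 0.14 (adjusted p = 0.161) and COX6A2, its muscle isoform, log2 0.07 ± 0.10 (adjusted p = 0.735). The muscle isoform COX7A1 had the lowest estimate of the complex, at 10.30, 10.89 and 10.36 at 18 h, against 11.18, 11.45, 11.12 and 11.14 in controls, and missed the threshold (log2 -0.70 ± 0.22, adjusted p = 0.0557). Its partner COX7A2 gave log2 -0.29 ± 0.13 (adjusted p = 0.194). For subunit 8 the estimates were -0.38 ± 0.13 for COX8A (adjusted p = 0.08) and -0.19 ± 0.10 for COX8B (adjusted p = 0.27). The difference between isoforms was not tested.

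The 2 members of complex IV that rose at 18 h were dim. NDUFA4L2, a paralogue of NDUFA4 known as a target of hypoxia-inducible factor in human and mouse cells, was at 8.13, 8.54 and 8.17 at 18 h, against 7.16, 7.56, 7.41 and 7.50 in controls. Every array at 18 h lay above every control, a 1.83-fold increase (log2 0.87 ± 0.16, adjusted p = 0.00593). At 6 h its values of 7.57, 7.38 and 7.90 overlapped the controls. The call at 18 h held under every alternative run, with a highest adjusted p of 0.0364, although a second, dimmer probe set of the gene gave 0.04 and the mean of both gave 0.46. NDUFA4 itself, a complex IV subunit first placed in complex I, was at 14.26, 14.48 and 14.15 at 18 h, against 14.38, 14.59, 14.39 and 14.38 in controls (log2 -0.14 ± 0.11, adjusted p = 0.465). COX6B2, the testis isoform of subunit 6B, was at 6.70, 6.65 and 6.87 at 18 h, against 5.92, 6.35, 6.25 and 6.11 in controls (log2 0.58 ± 0.12, adjusted p = 0.0112), and at 6.12, 6.03 and 6.29 at 6 h. Its 6 h values overlapped the controls (log2 -0.02).

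Complex V, the ATP synthase, was lower in all 17 members at 6 h and at 18 h by sign, and 3 passed the test at 18 h. Of all genes, 8.35% were called lower at 18 h (12.2% of those with a mean of 10 or more). ATP5F1C, the gamma subunit of the central stalk that turns inside the catalytic head, was at 13.10, 13.34 and 13.22 at 18 h, against 13.66, 13.63, 13.63 and 13.58 in controls (log2 -0.41 ± 0.10, adjusted p = 0.0241). The controls lay within a narrow range that no 18 h array reached. ATP5MC3, a c subunit of the rotor ring, was at 13.17, 13.50 and 13.29 at 18 h, against 13.82, 13.77, 13.74 and 13.73 in controls (log2 -0.45 ± 0.13, adjusted p = 0.0432). ATP5ME, a small membrane subunit, was at 11.78, 12.25 and 12.03 at 18 h, against 12.71, 12.67, 12.40 and 12.65 in controls (log2 -0.59 ± 0.16, adjusted p = 0.0387). Neither gene overlapped between the groups.

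The medians of the parts of complex V rest on few genes each, and the difference between parts was not tested. At 18 h the median was -0.48 for the c ring (3 genes), -0.41 for the central stalk (3) and -0.41 for other membrane subunits (4). It was -0.25 for the peripheral stalk (4 genes) and -0.21 for the catalytic head (2). In the head, ATP5F1A (alpha) gave log2 -0.17 ± 0.09 (adjusted p = 0.272) and ATP5F1B (beta, with the catalytic sites) log2 -0.25 ± 0.12 (adjusted p = 0.229). ATP5F1D, the delta subunit, counted with the central stalk, is uncertain. Its chosen probe set gave -0.66 (adjusted p = 0.0872) and a dimmer one was called higher at 18 h (log2 0.47). For ATP5MG, a membrane subunit, the chosen probe set gave -0.30 and was not called. The other probe set of ATP5MG was called lower at 18 h (log2 -0.52, adjusted p = 0.00237). ATP5IF1, which inhibits ATP hydrolysis by the synthase, was at 12.97, 13.73 and 13.35 at 18 h, against 13.79, 13.81, 13.74 and 13.80 in controls. Its 18 h arrays lay below all controls but spread widely, and it was not called (log2 -0.44 ± 0.16, adjusted p = 0.104).

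**Figure D3:**
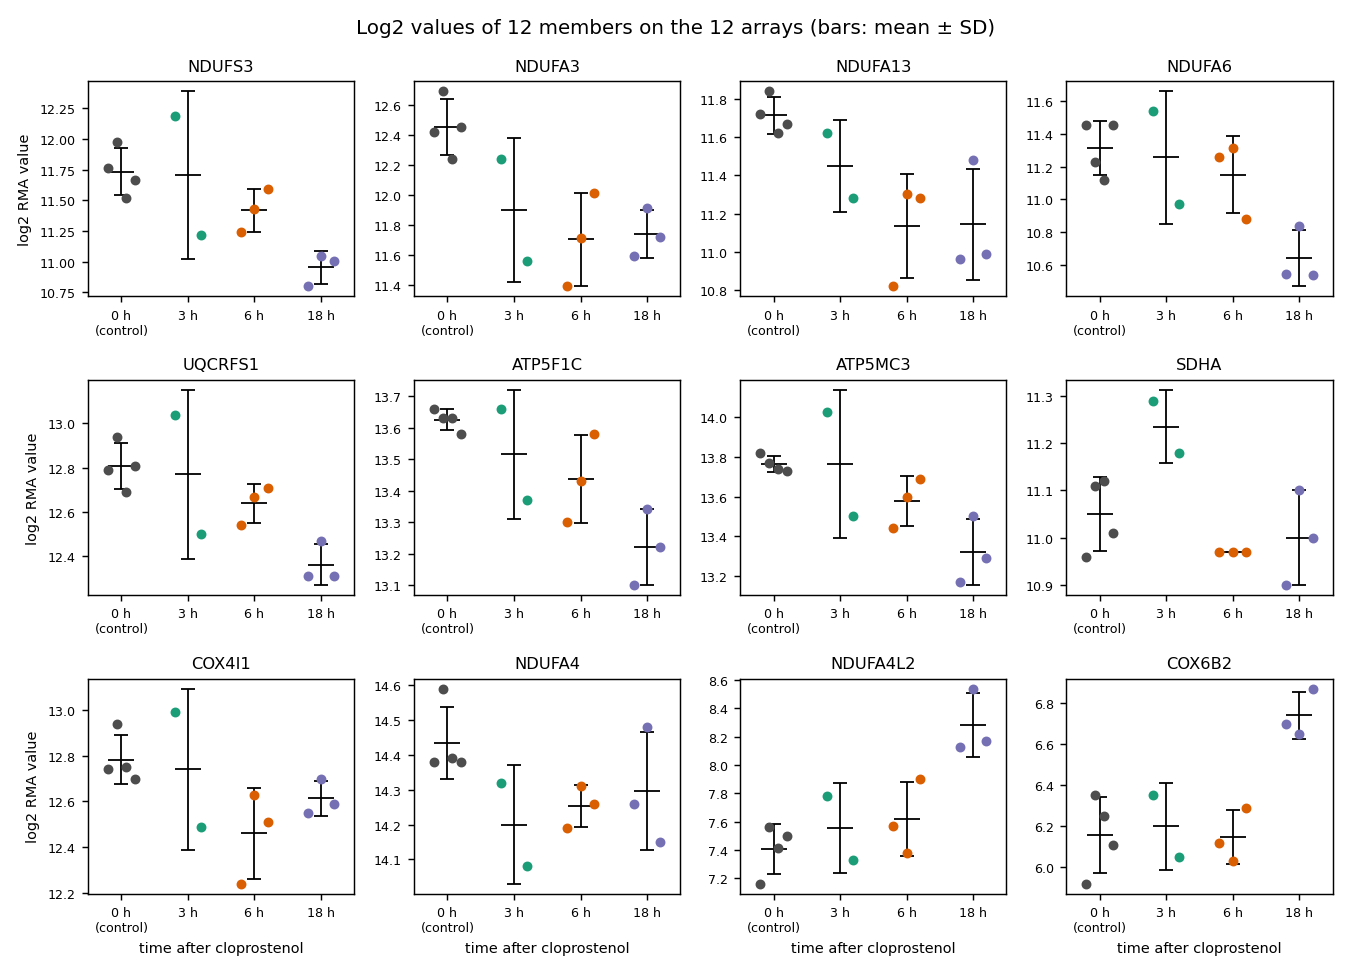
Log2 RMA values (vertical axis, a separate scale for each gene) of 12 members on the 12 arrays at 0, 3, 6 and 18 h (horizontal axis). Points are arrays and bars are mean ± SD. At 18 h NDUFS3, NDUFA6, UQCRFS1, ATP5F1C and ATP5MC3 lie below all controls, NDUFA4L2 and COX6B2 lie above them, and SDHA overlaps them.

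Between treated times no member was called. Of all genes, 3.78% were called at 18 h against 3 h, 0.229% at 6 h against 3 h and 0.644% at 18 h against 6 h. At an unadjusted p under 0.05, 21 members were lower and 2 higher at 18 h against 3 h, where 9.95% of all genes were lower and 10.1% higher. At 6 h against 3 h 3 members were lower and 0 higher at that threshold, where 8.26% of all genes were lower and 6.99% higher. At 18 h against 6 h 1 was lower and 2 were higher, where 5.88% of all genes were lower and 7.93% higher. With replicate 3 at 3 h dropped, 23 members were called at 18 h and 7 at 6 h against 3 h, and with replicate 1 at 3 h dropped, 1 and 0. In the F test over the 3 times, NDUFAF5, COX6B2 and NDUFA4L2 passed (adjusted p = 0.041, 0.027 and 0.023), where 14.1% of all genes did. The F test count was 35 when replicate 3 at 3 h was dropped and 19 when replicate 1 at 3 h was. It was 1 when control 1, replicate 2 at 6 h or replicate 2 at 18 h was dropped. It was 0 when control 4, replicate 1 at 18 h or replicate 3 at 18 h was. No share of all genes stands beside the counts from fits with an array dropped.

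Genes that work with the complexes were counted from lists of related genes, to be read beside the shares of all genes called lower (8.35% at 18 h and 7.66% at 6 h) and higher (7.55% at 18 h and 6.55% at 6 h). Electrons reach complex III on coenzyme Q, and the genes of its synthesis are listed with the enzymes that feed electrons to the chain. Of 14 measured electron carriers and feeders, 6 were down regulated at 18 h and 4 at 6 h, and none was up regulated, with a list median of -0.48 at 18 h. PDSS1 and PDSS2, which together build the isoprenoid tail of coenzyme Q, were both down at 18 h. PDSS1 was at 8.09, 7.87 and 8.14 at 18 h, against 8.78, 8.87, 8.65 and 8.91 in controls (log2 -0.77 ± 0.13, adjusted p = 0.00325), and PDSS2 at 7.64, 7.45 and 7.73, against 8.10, 8.41, 8.33 and 8.13 (log2 -0.64 ± 0.12, adjusted p = 0.007). Both genes were lower on every 18 h array than on any control. COQ2, which joins the tail to the ring, was at 8.34, 8.51 and 8.56 at 18 h, against 9.71, 9.22, 9.56 and 9.66 in controls (log2 -1.07 ± 0.17, adjusted p = 0.00266).

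COQ5, a methyltransferase of the ring (log2 -0.59 ± 0.15, adjusted p = 0.0249), and COQ8A, needed for the synthesis (log2 -0.81 ± 0.18, adjusted p = 0.0142), were also down regulated at 18 h. At 6 h PDSS2, COQ2, COQ8A and SUOX passed the test, but with control replicates 1 and 4 averaged only SUOX did. Dropping an array ended the 6 h call in 10 (PDSS2), 8 (COQ2) and 6 (COQ8A) of 12 fits, and in 0 for SUOX. SUOX, sulphite oxidase, which hands electrons to cytochrome c, had the lowest estimate of the list, at 8.72, 9.23 and 9.11 at 18 h, against 10.61, 10.54, 10.38 and 10.48 in controls (log2 -1.48 ± 0.12, adjusted p = 9.91e-05). With control replicates 1 and 4 averaged, 5 of these 6 genes were still called at 18 h. PDSS1, PDSS2, COQ2 and SUOX kept their 18 h calls under every alternative run, with COQ2 at -0.46 when its probe sets were averaged. The weakest estimate of PDSS1 under the alternatives was -0.456. Of the 12 fits that dropped an array, 6 ended the call of COQ5 and 2 that of COQ8A.

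Assembly genes of complexes I, III, IV and V outside the families above had 5 of 20 down regulated at 18 h, with a median of -0.28. These were UQCC3 and TTC19 of complex III, COA1 and COA3 of complex IV and TMEM70 of complex V. UQCC3 was at 9.05, 9.35 and 9.12 at 18 h and at 8.81, 9.09 and 9.23 at 6 h, against 10.05, 10.03, 9.67 and 9.99 in controls (log2 -0.76 ± 0.17, adjusted p = 0.0159, and log2 -0.89 ± 0.17, adjusted p = 0.00972). UQCC3, COA3 and COA4 passed at 6 h, and no member of the list was up regulated at either time. With control replicates 1 and 4 averaged, 1 of the 5 calls at 18 h held, and leaving out 1 array ended the calls in 2 (UQCC3) to 9 (COA3) of 12 fits. At 6 h only the call of UQCC3 held with those controls averaged, and leaving out 1 array ended the calls of COA3 and COA4 in 5 of 12 fits each.

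Among 10 genes of ADP, ATP and phosphate exchange and uncoupling, only SLC25A5, an ADP/ATP carrier, was called, and it was up. It was at 11.62, 11.79 and 11.67 at 18 h, against 11.10, 11.11, 11.45 and 11.17 in controls (log2 0.49 ± 0.13, adjusted p = 0.0372), and the 6 h values of 11.62, 11.81 and 11.65 also lay above every control. Dropping an array ended its 18 h call in 7 and its 6 h call in 8 of 12 fits, and both calls ended with control replicates 1 and 4 averaged. Of 11 regulators of mitochondrial gene expression, none was called at 18 h. At 6 h the coactivator PPRC1 was up (log2 0.61, adjusted p = 0.00817), while TFB1M, a methyltransferase of mitochondrial ribosomal RNA (log2 -0.65, adjusted p = 0.032), and the coactivator PPARGC1A (log2 -0.38, adjusted p = 0.0431) were down. With control replicates 1 and 4 averaged only PPRC1 was called, and dropping an array ended the call of PPARGC1A in 9, of TFB1M in 5 and of PPRC1 in 0 of 12 fits. Of the other alternatives, 2 ended the call of PPRC1. Over all alternatives its lowest estimate was 0.256 and its highest adjusted p in the limma fit was 0.0743. PPARGC1A was near the bottom of the scale, at 4.26, 4.36 and 4.51 at 6 h, against 4.74, 4.65, 4.63 and 5.02 in controls, and NRF1, an activator of subunit genes, gave log2 0.07 at 6 h (adjusted p = 0.747).

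**Figure D4:**
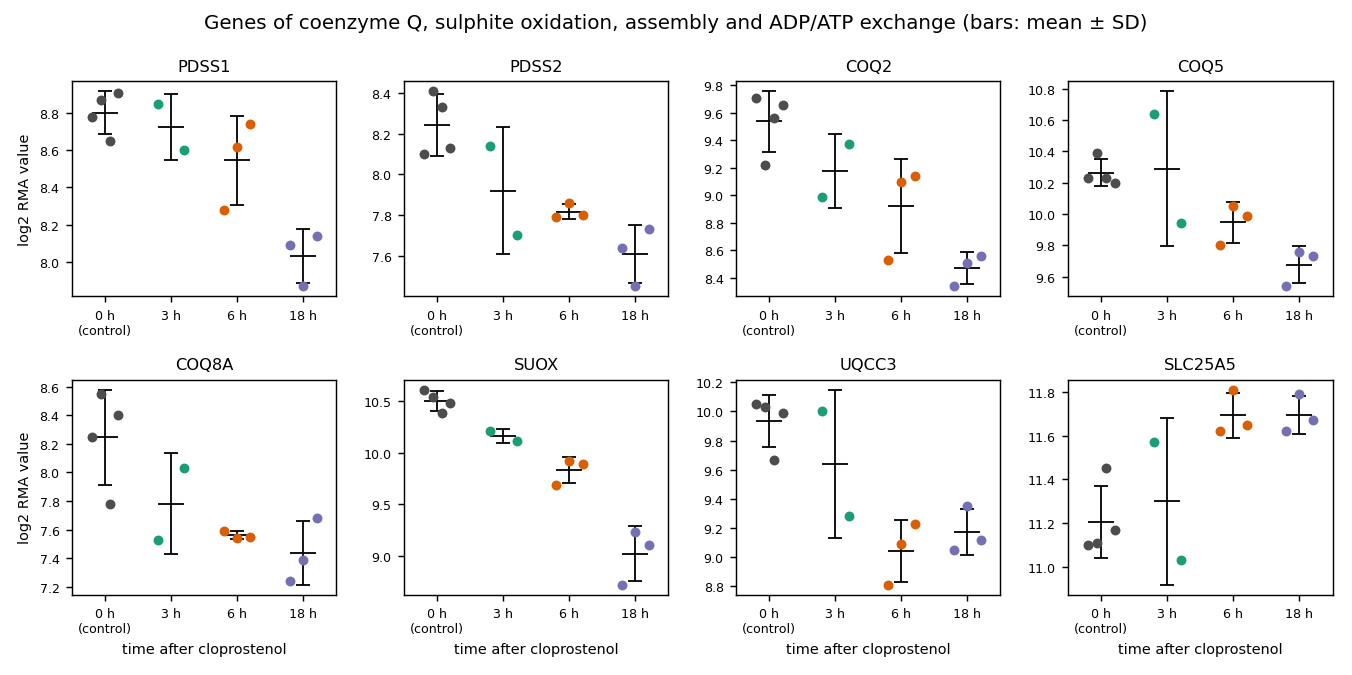
Log2 RMA values (vertical axis, a separate scale for each gene) on the 12 arrays at 0, 3, 6 and 18 h (horizontal axis) for the coenzyme Q genes PDSS1, PDSS2, COQ2, COQ5 and COQ8A and for SUOX, UQCC3 and SLC25A5. Points are arrays and bars are mean ± SD, and at 18 h SLC25A5 lies above all controls and the other genes lie below them.

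Cell type markers also moved over these times, and their counts stand beside the same shares of all genes called at 18 h (8.35% lower and 7.55% higher). Of the 9 steroidogenic cell markers, 6 were lower at 18 h and none higher, with a median of -0.66, and their mean level was 12.51 to 12.98 on the 18 h arrays, against 13.39 to 13.80 in controls. On each treated array from 6 and 18 h this list deviated further below the controls than the members did. Of 12 endothelial markers 4 were higher and 1 lower at 18 h (mean level 9.10 to 9.22, against 8.92 to 9.16). Of 8 smooth muscle and pericyte markers 3 were higher (mean level of all 8 9.90 to 10.23, against 8.81 to 9.66). Of 6 stromal markers 3 were higher (mean level of all 6 12.91 to 13.31, against 11.82 to 12.82). Of 7 monocyte and macrophage markers CD14 and CD68 were higher (mean level of all 7 9.05 to 9.83, against 8.20 to 9.49). None of the 9 lymphocyte or 3 granulocyte markers was called. The part of these shifts in the decline of the members was not tested. The difference between the 3′ and 5′ actin probe sets was 1.68 to 2.37 at 18 h, 1.61 to 1.88 at 6 h and 1.11 to 1.35 at 3 h, against 0.91 to 2.07 in controls. For the GAPD control probe sets it was 0.05 to 0.18 at 18 h and 0.03 to 0.15 at 6 h, against 0.05 to 0.25 in controls. For EF1A it was -2.26 to -2.08 at 18 h and -2.17 to -1.94 at 6 h, against -2.45 to -1.96 in controls. The part of these differences was not tested either.

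**Figure D5:**
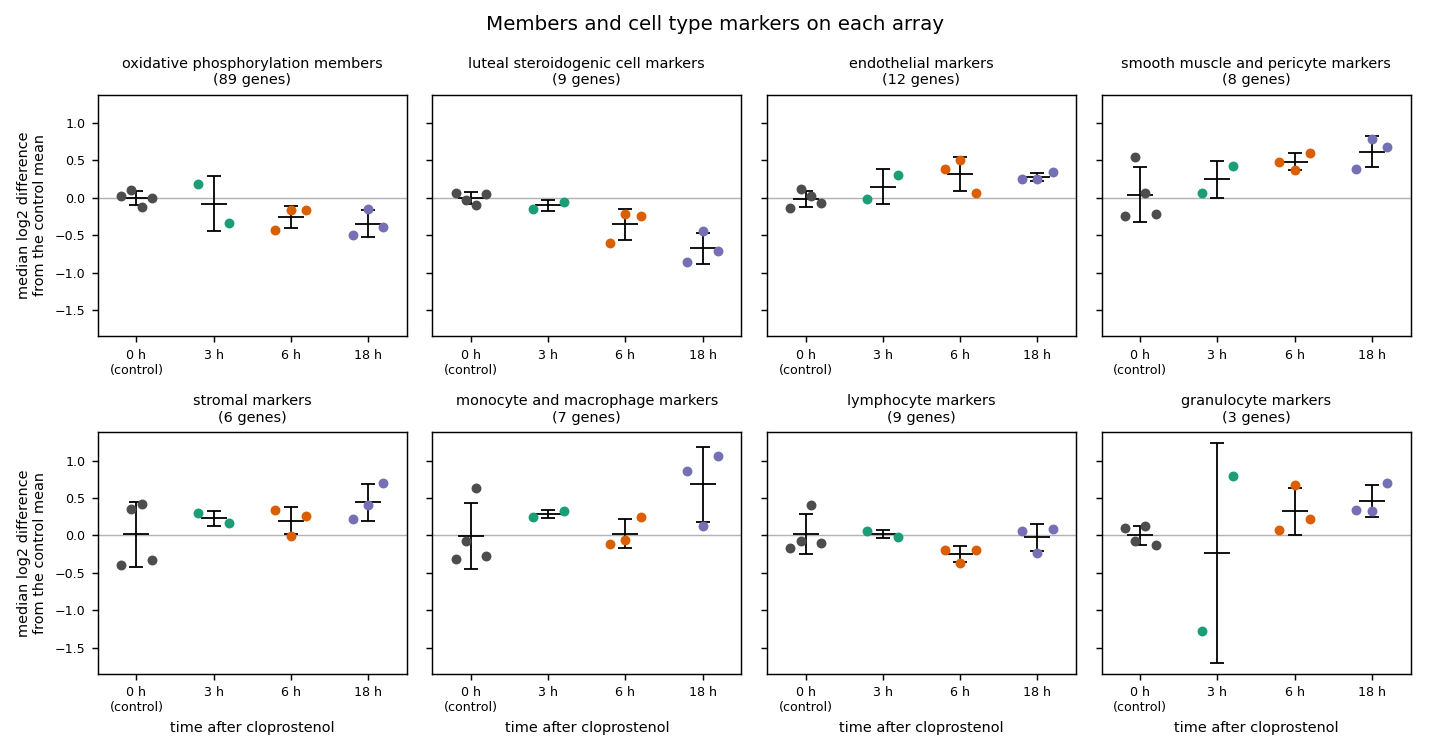
Median log2 difference from the control mean (vertical axis) of the 89 members and of each cell type marker list on the 12 arrays at 0, 3, 6 and 18 h (horizontal axis). Points are arrays and bars are mean ± SD, and the members and the luteal steroidogenic markers lie below 0 on every 6 h and 18 h array.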

How the data were processed

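Whole CL tissue of 12 buffalo cows was profiled on cattle GeneChip Bovine Genome Arrays, 1 array per animal. The authors deposited log2 values per probe set made by RMA, which corrects background, normalizes arrays and summarises probes. The RMA software version and chip definition were not given in the sources used here. Probes were designed on cattle sequence, so levels of different probe sets are only a rough guide to abundance. They were used to choose 1 probe set per gene, to describe signals as bright or dim and to set the background of bright genes. Of 24128 probe sets, 112 array controls were left out. Symbols came from the platform annotation, and 13292 probe sets had a single symbol.

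All 12 arrays entered 1 model of the 4 group means in limma 3.58.1 and R 4.3.3 (lmFit, contrasts.fit, eBayes). P-values were two-sided and adjusted by the Benjamini-Hochberg method over 24016 probe sets, with calls at adjusted p under 0.05. They measure the spread between animals, and precision is limited by how many arrays there were. Deviations per array are from the mean of the 4 controls. The fit was tested on simulated data with independent noise for each probe set. Shifts shared by many genes of an array were not simulated, so that test does not cover them. The members and gene lists were chosen with earlier results of these data known, so no test was made over a list. Named members were those called in any comparison, the 3 largest changes in each direction per time, the 2 lowest p-values of each complex at 18 h and fixed core subunits and isoforms. NDUFB2, NDUFAB1, ATP5F1D, ATP5MG, NDUFAF3, NDUFAF6 and NDUFAF8 were added after their values were seen. From the other lists, called members, PPARGC1A and NRF1 were named. Alternatives were to drop the 40% of probe sets with the lowest means, 1 probe set per gene or the mean of a gene's probe sets, renewed quantile normalization or median centring, trended and robust moderation, only the groups compared, control replicates 1 and 4 averaged, the replicate number as a block, and each array left out. Promoter sequences were not used here.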

Additional observations from a re-analysis of the deposited data

Results flagged for a closer look

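In 4 of 64 control groups examined, 1 control array lay far from the other 3, and chance flags about 1 in 20 such groups. Control replicate 2 was at 11.45 for COX7A1, where the other controls were at 11.12 to 11.18. The same array was at 12.31 for CYC1 (others 11.99 to 12.04) and at 14.59 for NDUFA4 (others 14.38 to 14.39). Control replicate 3 was at 9.67 for the assembly factor UQCC3 (others 9.99 to 10.05).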

How the results depend on the processing

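No result changed direction past the threshold under any alternative. The counts of members under the alternatives have no share of all genes beside them. The 18 h count of 18 members was 2 with the replicate number as a block, 31 with only the 2 groups compared and 3 with control replicates 1 and 4 averaged. The 6 h count of 5 was 0 with the replicate block, 13 with only the 2 groups and 1 with those controls averaged. The F test count of 3 was 0 with the replicate block and 5 with the mean of a gene's probe sets. Whether replicate numbers pair the animals could not be settled from 2 to 4 arrays a group. Same-numbered arrays of different groups correlated between -0.26 and 0.19 in their deviations, and 3 of 15 pairs were over 0.1. Of 12 arrays, 5 were closest to an array of their own number. Leaving out 1 array at a time gave 1 to 33 members at 18 h, 0 to 14 at 6 h, 0 to 1 at 3 h, 0 to 7 for 6 h against 3 h, 0 to 23 for 18 h against 3 h and 0 to 35 in the F test. The median over all members then ranged from -0.445 to -0.251 at 18 h, from -0.294 to -0.165 at 6 h and from -0.341 to 0.183 at 3 h. The cause was not tested. With 2 to 4 animals a group, small shifts of single genes were at the limit of the test.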
